A study of Sus scrofa with 6 samples.

Results

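Aromatase (the product of the CYP19A genes) and 17-beta-hydroxysteroid dehydrogenase 1 (HSD17B1) carry out the closing steps of estradiol synthesis in the ovary. Their transcripts were followed here over 3 stages of pig follicle growth. The 3 genes, of 6765 that the annotation names singly, were followed through all probe sets (groups of short probes read out as 1 signal) annotated to CYP19A1, CYP19A3 or HSD17B1 alone, however dim. These member probe sets number 13 of the 24123 in the table, namely 4 for CYP19A1, 8 for CYP19A3 and 1 for HSD17B1. Another probe set, Ssc.14541.1.S1_s_at, is annotated to CYP19A1, CYP19A2 and CYP19A3 together. It is no member, and its values are given beside theirs. No probe set was annotated to CYP19A2 alone.

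Follicles were isolated from ovaries of prepubertal gilts (young female pigs before puberty) by morphology and size, at stages titled primordial, middle stage and last stage. Total RNA was hybridized to Affymetrix porcine arrays, 2 per stage and 6 in all, titled as biological replicates. No strain, treatment or age is given. The labels name no animals behind the replicates, so a p-value here covers array-to-array spread alone, and the number of arrays limits the precision. A text field that the samples share names the primordial stage for all 6, so the stages rest on the titles. No batch or scan date was given.

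In a growing follicle, theca cells turn cholesterol into androgens, and the neighbouring granulosa cells convert these androgens to estrogens with aromatase. HSD17B1 is known in granulosa cells for reducing the weak estrogen estrone to estradiol. Pigs are unusual among mammals in having several aromatase genes, whose products are known from different tissues, including the ovary, the placenta and the early embryo. In the RefSeq gene table of assembly Sscrofa11.1 the 3 genes CYP19A3, CYP19A1 and CYP19A2 follow each other directly, with no other gene between them.

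Markers of the cells a follicle can hold were set beside the titles. The summed signal of 11 granulosa genes, without the members, was 32817 and 43138 on primordial-labelled arrays, 15541 and 19192 on middle-stage arrays and 52383 and 48041 on last-stage arrays. In the same order, the sum for 10 oocyte genes was 493 and 459, 20027 and 21758, and 882 and 882. For 10 immune genes it was 21453 and 19521, 1508 and 1135, and 1721 and 4785. For 7 theca genes it was 6398 and 6055, 3554 and 4854, and 19938 and 22955. For 6 stromal fibroblast genes it was 965 and 717, 20022 and 12786, and 16045 and 12982. No marker of these lists was listed at 0 on all arrays; the granulosa transcription factor FOXL2 had 6.9 to 41.7. Oocyte markers were dim on the arrays labelled as the earliest stage and high on middle-stage arrays, while immune markers were high on primordial-labelled arrays. In such bulk samples fewer cells of a type and less RNA per cell cannot be told apart.

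Every difference below is on the log2(signal + 16) scale, ± the standard error of limma's fit to all 23999 probe sets that are not controls, with n = 2 arrays per stage. Folds were taken on that scale and are too small for dim probe sets. A call is a Benjamini-Hochberg adjusted p under 0.05 over all these probe sets. Over all of them the median of middle minus primordial was 0.24, that of last minus middle -0.11 and that of last minus primordial 0.11. Brightness depends on each probe set's own probes, so signals of 2 probe sets do not rank the amounts of their transcripts; the stage patterns are compared instead.

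The 13 probe sets split into a few with clear signal and many near the floor. Over 6 arrays, 4 members had a mean signal above 91.3, the level under which the dimmest 40% of probe sets lay: HSD17B1 and 3 of the 8 CYP19A3 sets. Another CYP19A3 set, Ssc.16184.1.S1_s_at, averaged 88.2. All 4 CYP19A1 sets and the other 4 CYP19A3 sets averaged under 50 and had signals of 1.2 to 57.6. By limma's F-test, 4 of 13 members differed between stages at an adjusted p under 0.05, against 29.8% of all probe sets. These were 3 CYP19A3 sets and HSD17B1. None of the 4 CYP19A1 sets passed, 0 of them at an unadjusted p under 0.05.

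The brightest aromatase probe set, Ssc.4548.1.A1_at (CYP19A3), had a signal of 8971 and 10896 on primordial-labelled arrays, 1433 and 1924 on middle-stage arrays and 14524 and 14555 on last-stage arrays. The middle arrays were low, and no stage overlapped another. In middle minus primordial it fell by 2.56 ± 0.19, which is 5.91-fold lower (limma adjusted p = 8.97e-05). In last minus middle it rose by 3.12 ± 0.19, or 8.68-fold (adjusted p = 0.000109). In last minus primordial the difference was 0.56 ± 0.19 and missed the threshold (adjusted p = 0.0767). With the 40% of dimmest probe sets left out it passed, at the same difference (adjusted p = 0.0406). Over all alternatives that p ranged from 0.0384 to 0.334.

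A second CYP19A3 set, Ssc.14541.1.S1_at, had a signal of 756 and 781 on primordial-labelled arrays, 68.0 and 165.4 on middle-stage arrays and 2477 and 3155 on last-stage arrays. The order of stages was that of the brightest set, again without overlap between stages. It was 6.36-fold lower in middle minus primordial (-2.67 ± 0.34, limma adjusted p = 0.000865) and 22.8-fold higher in last minus middle (4.51 ± 0.34, adjusted p = 0.000254). In last minus primordial it was 3.58-fold higher (1.84 ± 0.34, adjusted p = 0.00839). That last call ended without primordial replicate 1 (1.82, adjusted p = 0.0567), without primordial replicate 2 (1.86, 0.0558) and without last replicate 2 (1.67, 0.0526). Its adjusted p ran between 0.00305 and 0.0567 in all settings tried.

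**Figure D1:**
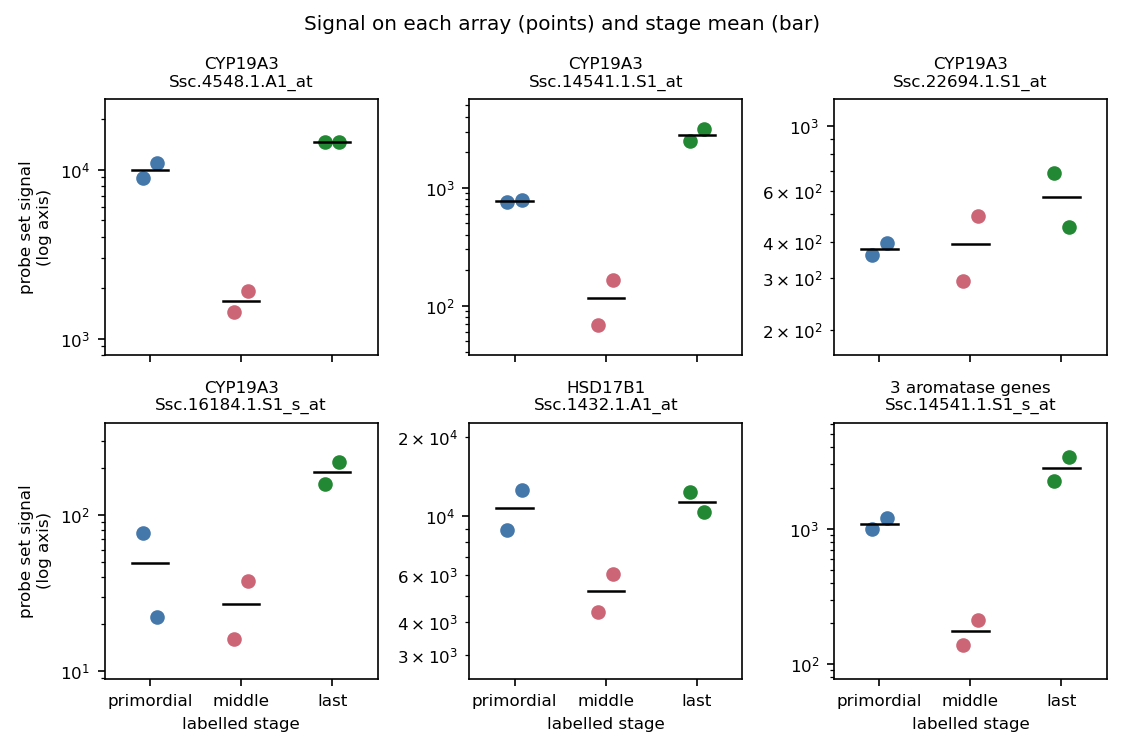
Signal on a log axis (vertical) by labelled stage (horizontal) for the 5 member probe sets with a mean of at least 50 and for the set shared by 3 aromatase genes; points are arrays and bars are means of 2. For Ssc.4548.1.A1_at, Ssc.14541.1.S1_at, HSD17B1 and the shared set, the 2 middle arrays lie below the other 4; Ssc.22694.1.S1_at and Ssc.16184.1.S1_s_at have overlapping primordial and middle arrays.

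The set shared by the 3 paralogs, Ssc.14541.1.S1_s_at, had 997 and 1196 on primordial-labelled arrays, 139.8 and 211.8 on middle-stage arrays and 2259 and 3393 on last-stage arrays. Middle minus primordial was -2.56 ± 0.27 (limma adjusted p = 0.000366) and last minus middle 3.89 ± 0.27 (0.000194). The last-stage arrays were above the primordial-labelled ones by 1.33 ± 0.27 (0.012). The last of these calls ended without primordial replicate 1 (1.2, adjusted p = 0.0846), primordial replicate 2 (1.46, 0.0538) and last replicate 2 (1.04, 0.066). Within an array, Ssc.14541.1.S1_at minus this shared set was -0.39 and -0.60 on primordial-labelled arrays, -0.89 and -0.33 on middle-stage arrays and 0.13 and -0.10 on last-stage arrays. A signal on the shared set does not say which of the 3 genes it came from, and how far the sets of single paralogs bind transcripts of the others was not tested.

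The third set of this size, Ssc.22694.1.S1_at, is also annotated to CYP19A3 and did not have that pattern. Its signal was 362 and 397 on primordial-labelled arrays, 294 and 493 on middle-stage arrays and 689 and 450 on last-stage arrays. The middle arrays overlapped both other stages. Middle minus primordial was 0.01 ± 0.30 (95% interval -0.69 to 0.70) and last minus middle 0.53 ± 0.30 (-0.17 to 1.23). Last minus primordial was 0.54 ± 0.30 (-0.16 to 1.23). None was called, with limma adjusted p values of 0.99, 0.335 and 0.282 in this order. Probe sets given the same gene symbol thus had different patterns: the first interval does not include the -2.56 of Ssc.4548.1.A1_at or the -2.67 of Ssc.14541.1.S1_at.

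The fourth, Ssc.16184.1.S1_s_at, was dim outside the last stage, with a signal of 76.7 and 22.3 on primordial-labelled arrays, 16 and 37.7 on middle-stage arrays and 158.5 and 218.0 on last-stage arrays. Its suffix marks, in the array maker's naming, a set whose probes match more than 1 transcript, although the annotation gives it CYP19A3 alone. It was 4.87-fold higher in last minus middle (2.29 ± 0.51, limma adjusted p = 0.0299) and 3.39-fold higher in last minus primordial (1.76 ± 0.51, 0.0481), and differed by -0.52 ± 0.51 in middle minus primordial (0.494). Both calls ended without any 1 of several arrays: the first without either middle or either last array (1.91 to 2.66, adjusted p = 0.0801 to 0.215), and the second without primordial replicate 2 (1.12, 0.244), either middle array (1.76 and 1.76, 0.0723 and 0.074) or either last array (1.97 and 1.55, 0.116 and 0.175).

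HSD17B1, with its 1 probe set Ssc.1432.1.A1_at, had a signal of 8907 and 12569 on primordial-labelled arrays, 4370 and 6043 on middle-stage arrays and 12390 and 10375 on last-stage arrays. It was lowest on middle-stage arrays, while the last arrays lay within the range of the arrays labelled primordial. It was 2.06-fold lower in middle minus primordial (-1.04 ± 0.23, limma adjusted p = 0.010) and 2.20-fold higher in last minus middle (1.14 ± 0.23, adjusted p = 0.0195). In last minus primordial the difference was 0.10 ± 0.23 (95% interval -0.42 to 0.62, adjusted p = 0.822). The first call ended without primordial replicate 2 (-0.79, adjusted p = 0.0791) and middle replicate 1 (-0.81, 0.0915). The second ended without middle replicate 1 (0.91, 0.169), last replicate 1 (1.01, 0.0976) and last replicate 2 (1.27, 0.0523), and in the fit without an intensity trend (1.14, 0.0849).

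On the middle arrays HSD17B1 and both CYP19A3 sets with the largest signals were low together. In middle minus primordial 3 of 13 members were called, all lower, against 29.3% of all probe sets, with 10.2% lower and 19.1% higher. In last minus middle 4 of 13 were called, all higher, against 8.78% of all probe sets, with 3.34% higher and 5.44% lower. In last minus primordial 2 of 13 were called, both higher, against 17.4% of all probe sets, with 10.3% higher and 7.12% lower. The split of all calls depends on the scaling: 37.3% in place of 65.3% of them were higher in middle minus primordial with median centring, 57.7% in place of 38.0% in last minus middle, and 36.7% in place of 59.1% in last minus primordial. With quantile normalization these shares were 53.5%, 45.8% and 50.4%. Arrays of both stages did not overlap for 6 members lower and 0 higher in middle minus primordial, against 22.4% and 43.1% of all probe sets. In last minus middle it was 7 members higher and 2 lower, against 20.0% and 33.3%, and the 2 lower were CYP19A1 sets under 60 on every array. In last minus primordial it was 5 members higher and 0 lower, against 34.5% and 23.4%, and Ssc.16184.1.A1_at among the 5 was as dim. In these comparisons the members' medians were -0.52, 0.55 and 0.43. Both middle arrays lay below all 4 others for 5 of 13 members, against 10.4% of all probe sets; the additional ones were Ssc.16184.1.S1_at and Ssc.16184.1.S1_x_at of CYP19A3, both under 40 on every array. The comparisons share arrays, so these counts are not independent. The counts over all probe sets rest on single arrays: without middle replicate 1, 3346 in place of 7028 were called in middle minus primordial and 420 in place of 2106 in last minus middle.

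Some measures of RNA quality and of cell content moved beside these values. The log2 excess of the 3′ over the 5′ signal of the actin control was 3.56 and 3.21 on primordial-labelled arrays, 4.98 and 4.21 on middle-stage arrays and 3.90 and 3.57 on last-stage arrays. For GAPDH it was 3.43 and 2.69, 3.29 and 2.79, and 1.90 and 1.86, so the middle arrays lay within the range of the primordial-labelled ones. For the EF1A control it was 1.02 and 0.67, 1.34 and 0.87, and 0.83 and 0.70. There the primordial-labelled arrays overlapped both other stages. On each of these controls both middle arrays lay above both last arrays, without overlap. The summed granulosa signal given above was also lowest on middle-stage arrays, where 6 of its 11 genes nevertheless had their highest stage mean. The sums of the theca, immune, endothelial and luteal or ovulatory lists were lowest there too. The theca sum was given above, that of 6 endothelial genes was 1402 and 1572 on primordial-labelled arrays, 949 and 793 on middle-stage arrays and 2393 and 3147 on last-stage arrays, and that of 6 luteal or ovulatory genes was 4660 and 5312, 2377 and 1605, and 6506 and 6649. The sum of 5 smooth muscle and pericyte genes was 6486 and 6028, 8494 and 9801, and 29851 and 29609, and was not lowest on middle-stage arrays. The low theca sum on middle-stage arrays came mainly from CYP11A1, with means of 4492 on primordial-labelled and 673 on middle-stage arrays. INSL3 instead had 415 and 2126. Of 10 theca probe sets, 5 had a call upward and 1 downward in middle minus primordial (median 0.98). Among endothelial genes PECAM1 had 931 and 227, but CDH5 143 and 221. Of 13 endothelial sets, 0 had a call upward and 2 downward (median 0.24). By these medians neither the theca nor the endothelial list was lower as a whole. Of 17 granulosa sets, 3 had a call upward and 6 downward in middle minus primordial (median -0.53). AMH, a granulosa hormone of small follicles, had 970 and 1764 on middle-stage arrays, against 199 and 273 on primordial-labelled arrays. INHA went the other way, with 2219 and 3823 against 11118 and 16319. The means of FST, SERPINE2, NR5A2 and the dim INHBB were also lower on middle-stage arrays. The part of RNA quality and of cell content in the members' differences was not tested.

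**Figure D2:**
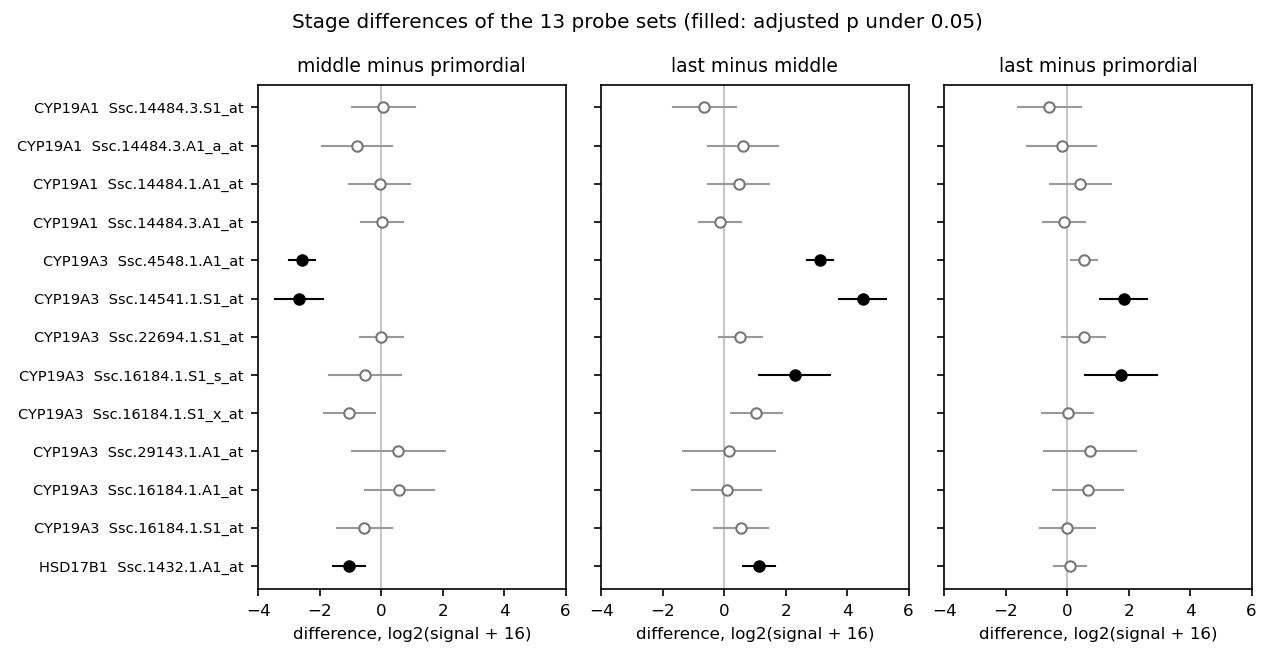
Differences between stages (horizontal, log2(signal + 16) units; points with limma's 95% intervals as lines) for the 13 member probe sets in 3 comparisons; filled points have an adjusted p under 0.05. The 4 CYP19A1 sets straddle 0 throughout, while Ssc.4548.1.A1_at and Ssc.14541.1.S1_at of CYP19A3 reach -2.56 and -2.67 in middle minus primordial and 3.12 and 4.51 in last minus middle.

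The CYP19A1 sets gave no measurable stage pattern. Ssc.14484.1.A1_at had signals of 5.9 and 30.0 on primordial-labelled arrays, 16 and 13.9 on middle-stage arrays and 21.0 and 33.4 on last-stage arrays. Ssc.14484.3.A1_a_at had 13.7 and 48.0, 7.5 and 11.4, and 38.5 and 11.2. Ssc.14484.3.S1_at had 18.0 and 52.2, 40.4 and 29.6, and 11 and 22.7. On all 3 sets the 2 arrays labelled primordial spanned a wider range than the 2 middle arrays. Ssc.14484.3.A1_at stayed between 3.6 and 7.8 on all arrays. Of the 24 CYP19A1 signals, 14 were at or below 16, where the pseudocount limits any fold. The differences furthest from 0 were -0.78 ± 0.49 in middle minus primordial, on Ssc.14484.3.A1_a_at, and -0.65 ± 0.44 in last minus middle, on Ssc.14484.3.S1_at. On Ssc.14484.3.A1_a_at the 95% intervals were -1.91 to 0.35 in middle minus primordial and -0.53 to 1.74 in last minus middle. They hold both 0 and changes of the size seen for HSD17B1, so this set could not tell these apart.

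The 4 dimmest CYP19A3 sets resembled the CYP19A1 sets in brightness. Ssc.16184.1.A1_at, Ssc.16184.1.S1_at, Ssc.16184.1.S1_x_at and Ssc.29143.1.A1_at had signals of 1.2 to 57.6. Only Ssc.16184.1.S1_x_at came near a call, with 28.2 and 32.1 on primordial-labelled arrays, 3.2 and 10.4 on middle-stage arrays and 36.8 and 24.9 on last-stage arrays. Its middle arrays were the low ones. The difference was -1.03 ± 0.36 in middle minus primordial (limma adjusted p = 0.0633) and 1.05 ± 0.36 in last minus middle (0.118). The first passed with arrays centred on their medians (-1.45, adjusted p = 0.0197), with quantile normalization (-1.32, 0.0273) and without an intensity trend (-1.03, 0.0369), and its p ran between 0.0197 and 0.261 in all settings tried. The suffix of this set marks probes that can also match other sequences.

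**Figure D3:**
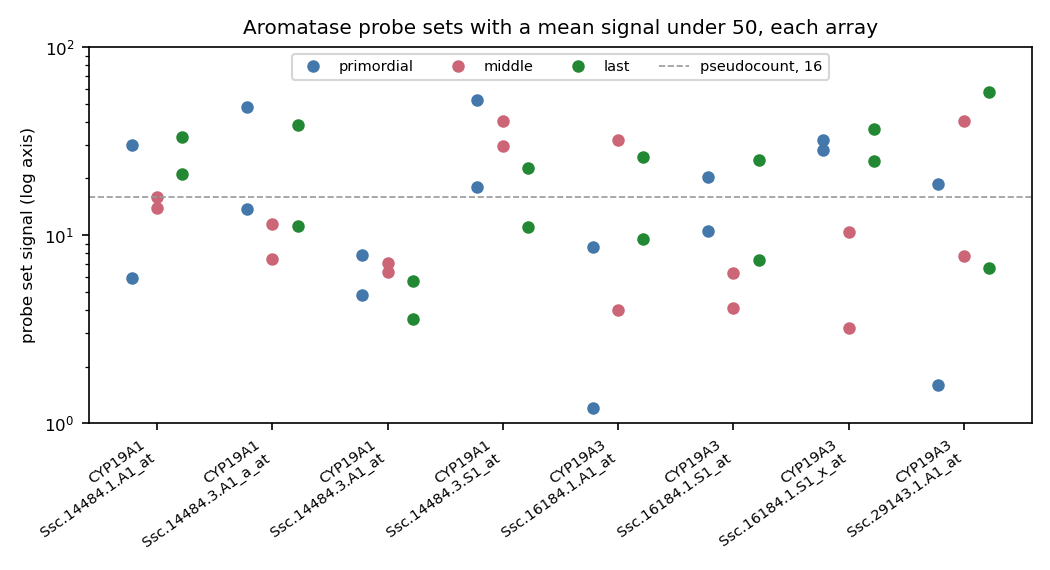
Signal on a log axis (vertical) on each array for the 8 aromatase probe sets with a mean under 50 (horizontal), coloured by labelled stage; the dashed line is the pseudocount of 16. Signals lie between 1.2 and 57.6 and the stages overlap on most sets; Ssc.16184.1.S1_x_at has both middle arrays lowest.

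Differences between members were also taken within each array, where they do not depend on the array's scaling apart from the pseudocount. HSD17B1 minus Ssc.4548.1.A1_at was -0.01 and 0.21 on primordial-labelled arrays, 1.60 and 1.64 on middle-stage arrays and -0.23 and -0.49 on last-stage arrays. The middle arrays were highest, that is, the CYP19A3 set was low relative to HSD17B1 there. HSD17B1 minus Ssc.14541.1.S1_at was 3.53 and 3.98, 5.71 and 5.06, and 2.32 and 1.71, also highest on middle-stage arrays. HSD17B1 minus Ssc.22694.1.S1_at went the other way, with 4.56 and 4.93, 3.82 and 3.57, and 4.14 and 4.48. Each of these 3 relations separated the stages without overlap, and each had an exact permutation p of 0.0667 (adjusted p = 0.133 over 10 pairs), the smallest that 2 arrays in each of 3 stages can give. The design could therefore not reach the threshold of 0.05 for such a difference.

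Between the CYP19A3 sets themselves, Ssc.14541.1.S1_at minus Ssc.4548.1.A1_at was -3.54 and -3.78 on primordial-labelled arrays, -4.11 and -3.42 on middle-stage arrays and -2.54 and -2.20 on last-stage arrays. The arrays labelled primordial overlapped the middle arrays, and the last arrays were higher (exact permutation p = 0.2, adjusted p = 0.25 over 10 pairs). Ssc.14541.1.S1_at minus Ssc.22694.1.S1_at was 1.03 and 0.95, -1.88 and -1.49, and 1.82 and 2.77, with no overlap between stages (exact permutation p = 0.0667, adjusted p = 0.133). Of the 10 pairs among the 5 members with a mean of at least 50, 5 had the smallest p possible. Over the 6 arrays Pearson's r of Ssc.4548.1.A1_at was 0.963 with Ssc.14541.1.S1_at, 0.954 with HSD17B1, 0.713 with Ssc.16184.1.S1_s_at and 0.480 with Ssc.22694.1.S1_at, as a description of arrays that share their stage.

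**Figure D4:**
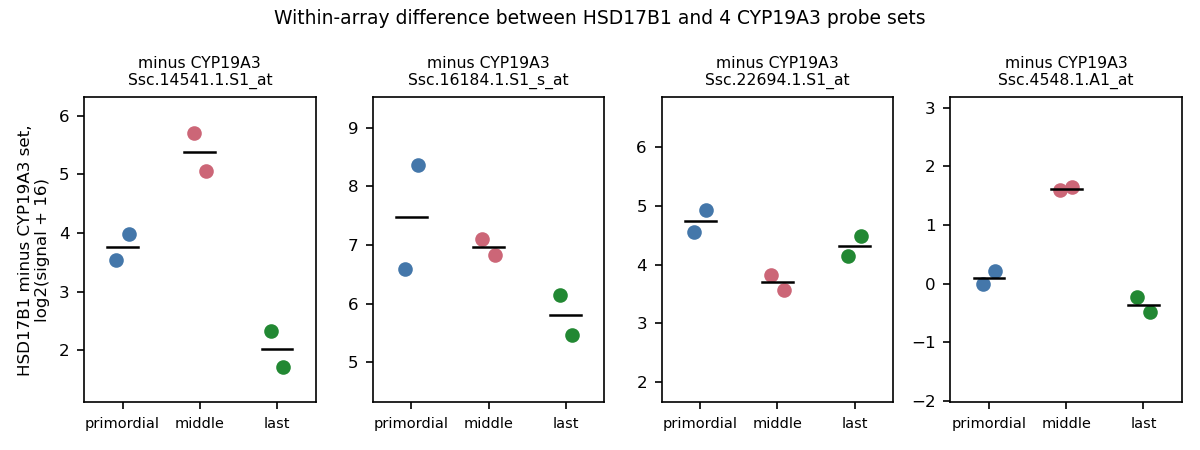
HSD17B1 minus each of 4 CYP19A3 probe sets within the same array (vertical, log2(signal + 16) units; points are arrays, bars means of 2) by labelled stage (horizontal); the panels' axes have equal spans but different centres. Against Ssc.4548.1.A1_at and Ssc.14541.1.S1_at the middle arrays are highest, and against Ssc.22694.1.S1_at they are lowest.

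The genes most like each member were picked from 2695 candidate probe sets. Likeness was measured as Pearson's r over the 6 arrays. Candidates had 1 symbol, were not dim and had a standard deviation of at least 0.5. With so many candidates and 6 arrays, a high r does not show a special relation to a member. Closest to Ssc.4548.1.A1_at (CYP19A3) were the lipoprotein receptor LRP8 (r = 0.996), B2M, the light chain of MHC class I (0.992), POR, the reductase that gives electrons to aromatase and other microsomal P450 enzymes (0.991), the growth factor midkine, MDK (0.991), and REXO2 (0.991). LRP8 had a signal of 8467 and 8525 on primordial-labelled arrays, 1022 and 1169 on middle-stage arrays and 11447 and 13081 on last-stage arrays. Closest to Ssc.14541.1.S1_at were METTL17 (0.995), the activin-binding protein follistatin, FST (0.994), LHFPL2 (0.989), BTG2 (0.989) and the basement membrane collagen gene COL4A2 (0.987). Closest to HSD17B1 were TMEM120A (0.986), the inhibin alpha subunit INHA (0.985), GNB2 (0.983), OAF (0.981) and REXO2 (0.977). The dimmer Ssc.16184.1.S1_s_at was closest to TIFA (0.999) and HAGH (0.996), and Ssc.22694.1.S1_at to REEP4 (0.956) and PRADC1 (0.943). These values describe 6 arrays that share their stages.

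The reductase POR had a signal of 2021 and 2749 on primordial-labelled arrays, 330 and 639 on middle-stage arrays and 3193 and 3535 on last-stage arrays. The middle arrays were low, as for Ssc.4548.1.A1_at and Ssc.14541.1.S1_at of CYP19A3. It was lower in middle minus primordial (-2.32 ± 0.29, limma adjusted p = 0.000896) and higher in last minus middle (2.82 ± 0.29, 0.00116), with 0.51 ± 0.29 in last minus primordial (0.291). Over all probe sets, 2.07% were called lower in middle minus primordial and also higher in last minus middle, a pattern that Ssc.4548.1.A1_at, Ssc.14541.1.S1_at and HSD17B1 share by their own calls.

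Among the steps that supply aromatase with androgen, some genes were low on middle-stage arrays and others were not. In the list of androgen precursor synthesis, without the members, 7 of 13 genes were on the array in 8 probe sets. In last minus middle 6 of 8 were higher and 0 lower, against 3.34% and 5.44% of all probe sets. In middle minus primordial 3 were higher and 1 lower, against 19.1% and 10.2%. CYB5A, cytochrome b5, which assists androgen formation by CYP17A1, had 3229 and 3839 on primordial-labelled arrays, 3653 and 3923 on middle-stage arrays and 8443 and 7917 on last-stage arrays. It did not differ detectably in middle minus primordial (0.10 ± 0.15, limma adjusted p = 0.666) and was higher in last minus middle (1.11 ± 0.15, 0.00462), a call that ended without middle replicate 1 (1.06, 0.0634). HSD3B1, which makes progesterone and androstenedione from their precursors, had on Ssc.14393.1.S1_at 24.0 and 29.3, 97.5 and 279.8, and 764.2 and 719.9. It was higher at each later stage, by 2.11 ± 0.44 in middle minus primordial (0.0084) and 2.05 ± 0.44 in last minus middle (0.0261); the second call ended without an intensity trend (2.05, 0.0578), without middle replicate 1 (1.36, 0.129), last replicate 1 (2.01, 0.116) and last replicate 2 (2.09, 0.101). The androgen-forming enzyme CYP17A1 had 40.2 and 10.3, 55.5 and 53.5, and 552.7 and 535.5, and was higher by 3.86 ± 0.42 in last minus primordial (0.00106). STAR, which carries cholesterol into mitochondria, had 31.1 and 22.9, 88.5 and 63.9, and 2487 and 1626 on Ssc.279.1.S2_at, and was higher in last minus middle (4.47 ± 0.33, 0.000232). None of CYB5A, HSD3B1, CYP17A1 and STAR was called lower on middle-stage arrays than on those labelled primordial; POR, described above, was the 1 set of the androgen list that was. SCARB1, CYP11A1, NPC1 and 1 of the FDX1 sets, given next, were also called lower there. So were NPC2 on Ssc.529.1.S1_at (-2.42 ± 0.23, limma adjusted p = 0.000232) and TSPO (-1.58 ± 0.36, 0.0124), while the other NPC2 sets had no call.

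Genes of cholesterol supply and side-chain cleavage were divided. Of 16 probe sets for 10 of 12 listed genes, 1 was higher and 6 lower in middle minus primordial, against 19.1% and 10.2% of all probe sets. In last minus middle 5 were higher and 0 lower, against 3.34% and 5.44%. FDX1, the electron carrier of the mitochondrial P450 enzymes, was higher in last minus middle on both its probe sets (1.97 ± 0.20, limma adjusted p = 0.000999, and 1.75 ± 0.23, 0.00372). In middle minus primordial Ssc.231.1.S1_at was lower (-0.78 ± 0.20, 0.0206) and Ssc.231.1.S2_at had no call (-0.03 ± 0.23, 0.931). The lower call ended with quantile normalization (-0.63, 0.0502), without an intensity trend (-0.78, 0.0804) and without primordial replicate 2 (-0.51, 0.139), middle replicate 1 (-0.76, 0.111) or middle replicate 2 (-0.79, 0.0845). SCARB1, the receptor that takes up cholesterol from high-density lipoprotein, had 2162 and 2143 on primordial-labelled arrays, 784 and 1264 on middle-stage arrays and 2831 and 2138 on last-stage arrays. It was lower in middle minus primordial (-1.10 ± 0.24, 0.0108) and higher in last minus middle (1.29 ± 0.24, 0.016), with no call in last minus primordial (0.19 ± 0.24, 0.659). The first of these calls ended without primordial replicate 1 (-1.09, 0.0607), primordial replicate 2 (-1.11, 0.0613) or middle replicate 1 (-0.76, 0.073). The second ended without an intensity trend (1.29, 0.0695), without middle replicate 1 (0.95, 0.116) or last replicate 1 (1.09, 0.0864). CYP11A1, which cleaves the side chain of cholesterol, had 4673 and 4311, 256 and 1090, and 1610 and 1872 in the same order. It was lower in middle minus primordial (-3.04 ± 0.52, 0.00356), a call that held under all 15 alternatives (-4.05 to -2.03). Its difference in last minus middle was 1.67 ± 0.52 (0.0903) and passed with the 40% filter (0.0488), with the 60% filter (0.0492) and without middle replicate 2 (2.69, 0.00464). NPC1, which exports cholesterol from lysosomes, had 3822 and 5114 on primordial-labelled arrays, 877 and 1132 on middle-stage arrays and 980 and 1141 on last-stage arrays. It was lower in middle minus primordial (-2.13 ± 0.21, 0.000279) and had no call in last minus middle (0.08 ± 0.21, 0.856).

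Among relatives of HSD17B1, the dehydrogenase family of steroid and lipid metabolism, 7 of 11 other listed genes were on the array in 8 probe sets, of which 6 were not dim. In last minus middle 0 were higher and 1 lower, against 3.34% and 5.44% of all probe sets. In middle minus primordial 3 were higher and 0 lower, against 19.1% and 10.2%. HSD17B7, an enzyme of cholesterol synthesis that can also reduce estrone, had 1256 and 1541 on primordial-labelled arrays, 1672 and 1731 on middle-stage arrays and 436 and 335 on last-stage arrays. It was low on last-stage arrays, by -2.11 ± 0.20 in last minus middle (limma adjusted p = 0.000716) and -1.82 ± 0.20 in last minus primordial (0.00111). HSD17B4 and HSD17B8 were higher in middle minus primordial by 0.92 ± 0.16 (0.00372) and 1.22 ± 0.30 (0.0169), where HSD17B1 was lower. With quantile normalization 3 of the 8 sets were still called higher in middle minus primordial and 0 lower. With arrays centred on their medians the calls of HSD17B4 and HSD17B8 ended (0.51, adjusted p = 0.0657, and 0.81, 0.0766), and 0 of the 8 sets were called higher. That of HSD17B8 also ended without primordial replicate 1 (0.78, 0.0913), middle replicate 1 (1.06, 0.125) and middle replicate 2 (1.38, 0.0541). HSD17B2, which oxidizes estradiol back to estrone, had 4.9 to 58.5 on its 2 sets and no call.

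**Figure D5:**
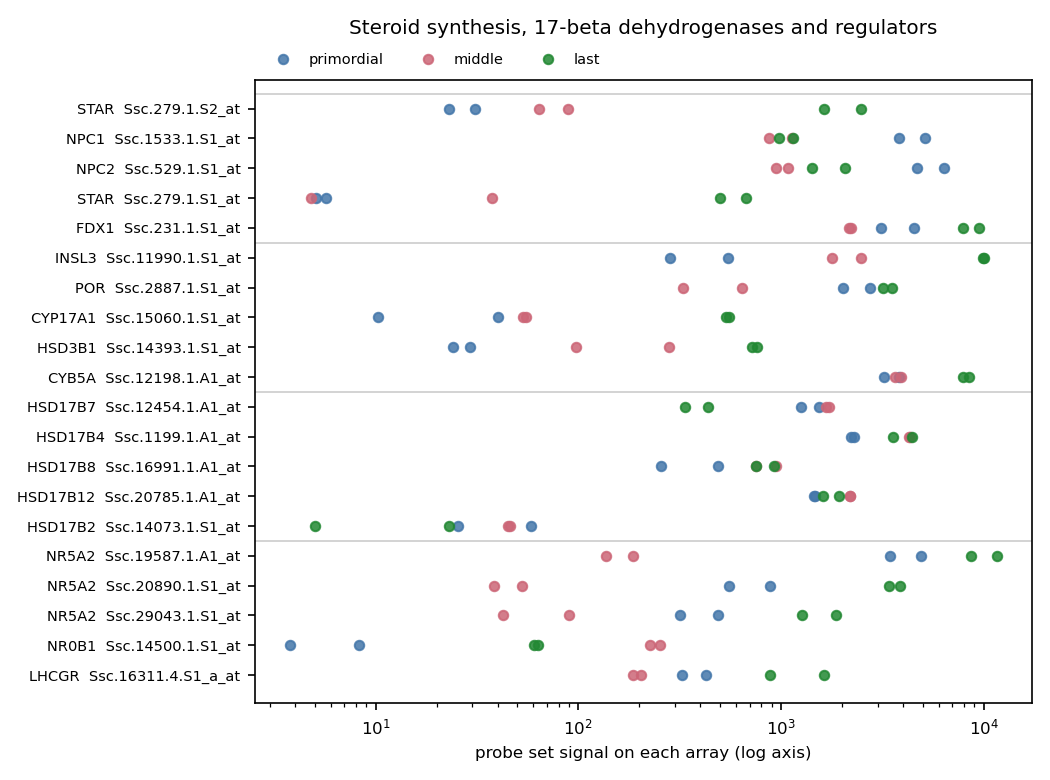
Signal on each array (horizontal, log axis) for up to 5 probe sets with the smallest F-test p from each of 4 gene lists (vertical; from top: cholesterol supply, androgen precursors, 17-beta-hydroxysteroid dehydrogenases, regulators of aromatase), coloured by labelled stage. POR and the 3 NR5A2 sets have both middle arrays lowest, while STAR on Ssc.279.1.S2_at, INSL3, CYP17A1 and HSD3B1 have both last arrays highest.

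Regulators that are known to act on aromatase transcription, in part from other mammals, included sets with the members' pattern and sets with its opposite. Of 31 probe sets for 16 of 19 listed genes, 8 were higher and 5 lower in middle minus primordial, against 19.1% and 10.2% of all probe sets. In last minus middle 6 were higher and 3 lower, against 3.34% and 5.44%. With arrays centred on their medians the first split was 3 higher and 9 lower, and with quantile normalization 8 higher and 7 lower. NR5A2, a nuclear receptor that binds the aromatase promoter, was lower in middle minus primordial and higher in last minus middle on 3 of its 5 sets; on Ssc.20890.1.S1_at it had 556 and 888 on primordial-labelled arrays, 52.7 and 38.6 on middle-stage arrays and 3865 and 3402 on last-stage arrays. NR0B1, a repressor of NR5A receptors, ran against this, with 8.3 and 3.8, 227 and 254, and 60.8 and 63.1, and was higher in middle minus primordial by 3.54 ± 0.35 (limma adjusted p = 0.0003). LHCGR, the receptor for luteinizing hormone, was higher in last minus middle on Ssc.16311.4.S1_a_at (2.53 ± 0.31, 0.00251).

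The estrogen receptors ESR1 and ESR2 were dim, with signals of 43.1 to 60.8 and 3.4 to 38.6, and had no call. The list of estrogen and androgen receptors and coregulators had 13 probe sets for 6 of 11 genes. Of these sets 2 were higher and 1 lower in middle minus primordial, against 19.1% and 10.2% of all probe sets. In last minus middle and last minus primordial 0 were called, against 8.78% and 17.4%. With median centring 0 were higher and 2 lower in middle minus primordial, and with quantile normalization 1 was higher and 0 lower. PGRMC1, a membrane-bound progesterone receptor component, had 4539 and 3718 on primordial-labelled arrays, 2501 and 2981 on middle-stage arrays and 2711 and 3358 on last-stage arrays. It was the set called lower in middle minus primordial (-0.59 ± 0.18, limma adjusted p = 0.0447), a call that 7 of 15 alternatives ended, among them quantile normalization (-0.39, 0.145), the replicate block (-0.59, 0.0597) and leaving out any 1 primordial or middle array (-0.73 to -0.44). In last minus primordial it was called lower with median centring (-0.67, 0.0453). NCOA2, a coactivator of steroid receptors, was higher in middle minus primordial (0.89 ± 0.21, 0.0154), and this call ended with median centring (0.47, 0.151) and without primordial replicate 1 (0.90, 0.0698), primordial replicate 2 (0.87, 0.0787) or middle replicate 1 (0.64, 0.102). Of the 9 genes for estrogen conjugation and inactivation, 2 were on the array; SULT1E1, the estrogen sulfotransferase, had 5.7 to 40 and CYP1A1 4.3 to 63.3, with no call.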

How the data were processed

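Linear intensity values of 24123 probe sets on 6 arrays were used as deposited. Per the submitters' processing notes the software was GCOS, its version and settings being not given in the sources used here. Deposited intensity values had been scaled by the authors to a common level: each array's mean was 500.1 once 2% was trimmed at either end. Stages came from titles. The 124 controls were left out. Of the other 23999 probe sets the annotation, which can be old, gives 1 symbol for 10069, several for 198 and none for 13732; 9961 of the first matched the RefSeq gene table. Values were analysed as log2(signal + 16) with limma 3.58.1 in R 4.3.3 (eBayes with an intensity trend, 3 residual and 5.28 prior degrees of freedom, two-sided). No filter on dim probe sets was used, since dim members were to be kept. Within-array differences used an exact permutation test over the stages. Python 3.11.15, pandas 2.3.3, numpy 2.4.6 and matplotlib 3.10.9 were used. On simulated data with 200 changed probe sets, last minus middle over 23999 recovered 10% of 50 changes of 1, 50% of those of 2, 78% of those of 3 and 90% of those of 4 (log2), with 6 false calls. In the real last minus middle 2106 probe sets were called. The Benjamini-Hochberg cut is stricter when fewer probe sets differ, so these rates do not give the recovery in the real comparisons. Up to 5 genes per list with the smallest F-test p were to be named, and the 5 genes most like each member; ESR1, ESR2, AMH, FOXL2, SCARB1 and CYP11A1 were chosen for their roles after their values were seen. PGRMC1, TSPO, PECAM1, CDH5, SERPINE2 and INHBB were also named with their values known. The members, lists and tests were chosen with earlier results of these data known. Other settings tried were filters, pseudocounts of 1 and 64, 2 scalings, a replicate block, no intensity trend, 4 arrays only and leaving out each array.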

Additional observations from a re-analysis of the deposited data

How the results depend on the processing

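Of 695 recomputed member results (differences and F-tests), 657 stayed on the same side of the threshold, and no called result changed direction; for CYP19A1 it was 204 of 204, none of them called. The differences of Ssc.4548.1.A1_at and Ssc.14541.1.S1_at of CYP19A3 in middle minus primordial and last minus middle stayed called under all alternatives. The 9 dim members, Ssc.16184.1.S1_s_at among them, have no value under the 40% and 60% filters. The cause of each change below was not tested. Without an intensity trend, HSD17B1 gave 0.055 in the F-test and 1.14 (adjusted p = 0.0849) in last minus middle, Ssc.16184.1.S1_s_at gave 2.29 (0.0536) and, in last minus primordial, 1.76 (0.0678), Ssc.16184.1.S1_x_at passed at 0.0494 in the F-test and -1.03 in middle minus primordial, and 1210 and 2782 probe sets were called in last minus middle and last minus primordial. Ssc.16184.1.S1_x_at also passed with median centring (F-test 0.0336, difference -1.45) and quantile normalization (0.043 and -1.32). Ssc.16184.1.S1_s_at in last minus primordial was not called with a pseudocount of 1 (2.14), median centring (1.54), quantile normalization (1.57), a replicate block (1.76, adjusted p = 0.0679) or 4 arrays (1.76). Ssc.4548.1.A1_at in last minus primordial passed with the 40% and 60% filters (0.56 in each). The replicate block changed no other member's call. Same-numbered arrays deviated with correlations of -0.05 to 0.06. This gave no sign of a pairing but cannot exclude one, since the labels name no animals. Leaving out 1 array gave for HSD17B1 -1.29 to -0.79 in middle minus primordial, 0.91 to 1.37 in last minus middle and an F-test p of 0.0177 to 0.107. It gave for Ssc.14541.1.S1_at 1.67 to 2.02 in last minus primordial, and for Ssc.16184.1.S1_s_at 1.91 to 2.66 in last minus middle, 1.12 to 2.40 in last minus primordial and 0.0202 to 0.111 in the F-test. Probe sets called ranged from 3813 to 6713 for any stage, 3346 to 7147, 420 to 1618 and 1726 to 3309 for middle minus primordial, last minus middle and last minus primordial. Those of the gene lists ranged from 19 to 30, 11 to 21 and 16 to 28 in the same order. Of all calls 65.3%, 38.0% and 59.1% were higher as deposited, 37.3%, 57.7% and 36.7% with median centring and 53.5%, 45.8% and 50.4% with quantile normalization. Signals at or below 16 bound what can be seen of dim members.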
